A study of Homo sapiens with 12 samples.

Results

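The proteasome subunit genes were taken as the protein-coding genes of GENCODE release 44 whose symbol is PSMA to PSMG followed by a number. There were 48 such genes among 20033 protein-coding genes: 19 core genes (PSMA and PSMB), 20 base and lid genes (PSMC and PSMD) and 9 activator and assembly genes (PSME, PSMF and PSMG). Their starts were read against peaks from untreated Huh7 cells, an established human hepatocellular carcinoma line, profiled by CUT&Tag, in which an antibody directs a transposase to cut and tag the DNA around its target. With the HSF1 antibody 3604911 tags entered peak calling, 2712212 were left once the caller had dropped duplicates, and 7147 peaks were called on chromosomes 1 to 22, X and Y. With an antibody against H3K27ac, histone H3 acetylated at lysine 27, these numbers were 15737890 tags, 896393 tags and 1299 peaks. Each library stood alone, with no genetic change or drug in either, so no value below has a replicate check and no test between conditions was possible. A gene was called bound when the summit of an HSF1 peak lay within 1 kb of any of its annotated transcript starts.

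The proteasome degrades proteins marked with ubiquitin. Its core particle is a stack of rings, with outer rings of PSMA products and inner rings of PSMB products that carry the catalytic sites. The regulatory particle on each end holds a base, in which PSMC ATPases unfold the substrate, and a lid, in which PSMD14 removes ubiquitin. PSME products form alternative activators, PSMF1 encodes an inhibitor, and PSMG products are chaperones that help to build the core. HSF1 is the main transcription factor of the heat shock response and binds inverted repeats of the unit GAA, named heat shock elements. CCAAT boxes, bound by NF-Y, are common close upstream of gene starts. Proteasome genes as a group are best known as targets of NFE2L1, which acts through antioxidant response elements when proteasome activity is low.

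HSF1 summits lay within 100 bp of a CCAAT at some proteasome genes and not at others, and sequences of both kinds are shown. They were read from hg38 on the strand of the gene and are limited to bases upstream of the canonical start and outside annotated exons. CCAAT, or ATTGG where the box is on the other strand, is in capitals. The stretches are centred on the boxes, and those of PSMB1, PSMD3 and PSMA5 contain the summit while those of PSMD1, PSMD10 and PSMA2 end before it. The bound genes with a CCAAT within 100 bp of the summit come first, in order of pileup, from chr6:170554147-170554211 (PSMB1, minus strand), chr17:39980560-39980624 (PSMD3, plus), chr2:231056481-231056545 (PSMD1, plus), chrX:108091584-108091648 (PSMD10, minus), chr1:109426468-109426561 (PSMA5, minus) and chr7:42932224-42932288 (PSMA2, minus). PSMA3 and PSMD14 were the remaining genes of this kind. PSMA3 is not shown because its box near the summit lies downstream of the canonical start. PSMD14 is not shown because its boxes or its summit lie in an annotated exon.
PSMB1: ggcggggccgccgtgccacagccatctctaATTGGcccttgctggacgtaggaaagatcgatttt
PSMD3: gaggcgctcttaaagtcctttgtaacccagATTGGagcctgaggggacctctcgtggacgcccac
PSMD1: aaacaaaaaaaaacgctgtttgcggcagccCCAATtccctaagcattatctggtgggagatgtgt
PSMD10: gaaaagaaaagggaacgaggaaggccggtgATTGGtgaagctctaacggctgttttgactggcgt
PSMA5: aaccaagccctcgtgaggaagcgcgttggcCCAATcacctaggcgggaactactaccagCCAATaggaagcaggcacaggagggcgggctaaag
PSMA2: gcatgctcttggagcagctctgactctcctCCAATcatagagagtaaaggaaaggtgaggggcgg

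The opposite cases follow. PSMC4 (chr19:39970965-39971025, plus) and PSMG1 (chr21:39183518-39183578, minus) had peaks with pileups of 21 and 18 and no CCAAT near the summit or the start, and are shown around their summits. PSMB3 (chr17:38752656-38752740, plus) had a pair of CCAAT boxes close to its start and no HSF1 peak.
PSMC4: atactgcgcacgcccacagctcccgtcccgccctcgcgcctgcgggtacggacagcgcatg
PSMG1: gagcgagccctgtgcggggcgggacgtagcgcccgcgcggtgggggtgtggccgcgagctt
PSMB3: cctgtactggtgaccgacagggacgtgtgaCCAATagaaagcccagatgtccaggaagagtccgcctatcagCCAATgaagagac

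HSF1 peaks were found at 20 of the 48 proteasome genes, or 41.7% (95% Wilson interval 28.8% to 55.7%), against 25.4% of all protein-coding genes. With the canonical start alone, 19 of 48 (39.6%) were bound, against 22.8% of all. The Wilson intervals cover counting error only, over genes that are not independent of each other. Most proteasome genes start in CpG-rich DNA, here at least 55% GC and a CpG observed to expected ratio of at least 0.6 within 250 bp of the canonical start, and such starts were bound more often across the genome. This held for 42 of 48 proteasome genes (87.5%) and 65.2% of all protein-coding genes. Among CpG-rich starts, 17 of 42 proteasome genes were bound, or 40.5% (27.04% to 55.5%), against 35.0% of all protein-coding genes with such a start. Within this class the share of proteasome genes was close to the background. The class does not match GC content itself: the median was 63.8% for the CpG-rich proteasome genes and 69.3% for all CpG-rich protein-coding genes, and its part in the shares was not tested.

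**Figure D1:**
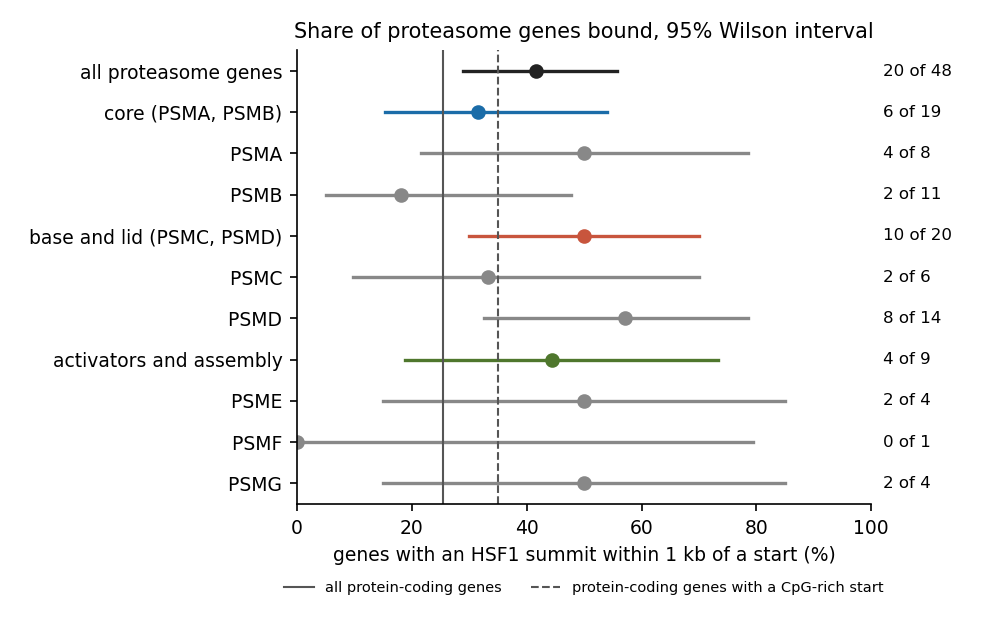
Share of proteasome genes with an HSF1 summit within 1 kb of a start, in percent, for all 48 genes, the 3 classes and the 7 families; points are shares, bars are 95% Wilson intervals, and counts stand at the right. The solid line marks all protein-coding genes (25.4%) and the dashed line those with a CpG-rich start (35.0%); PSMB lies lowest of the families with 2 or more genes and PSMD highest, and every class interval spans the dashed line.

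The classes did not separate beyond their counting intervals. Of the core genes 6 of 19 were bound (31.6%, 15.4% to 54.0%), of the base and lid genes 10 of 20 (50%, 29.9% to 70.1%) and of the activator and assembly genes 4 of 9 (44.4%, 18.9% to 73.3%). When each peak was given only to the protein-coding gene with the nearest start, an alternative chosen after seeing the data, the core fell to 4 of 19 (21.1%) and the activator and assembly genes to 2 of 9 (22.2%), against 21.2% of all, and the base and lid genes stayed at 10 of 20. Within the core, 4 of 8 PSMA genes and 2 of 11 PSMB genes were bound. Within the base and lid it was 2 of 6 PSMC genes (33.3%, 9.68% to 70.0%) and 8 of 14 PSMD genes (57.1%, 32.6% to 78.6%). The PSMD interval lies above the 25.4% of all protein-coding genes and holds the 35.0% of those with a CpG-rich start. All 14 PSMD genes had such a start. Members that are inducible by interferon or restricted to a tissue (PSMA8, PSMB8, PSMB9, PSMB10, PSMB11, PSME1 and PSME2) were bound in 2 of 7 cases (28.6%, 8.22% to 64.1%), close to the 25.4% of all protein-coding genes, and the other members in 18 of 41 (43.9%, 29.9% to 59.0%). In the comparison lists 6 of 8 CCT chaperonin genes (75%, 40.9% to 92.9%) and 33 of 86 cytosolic ribosomal protein genes (38.4%, 28.8% to 48.9%) were bound. Both intervals overlap that of the proteasome genes. The CCT interval lies above the 25.4% of all protein-coding genes and the 35.0% of those with a CpG-rich start. However, 5 of the 8 CCT genes have a protein-coding gene that starts on the opposite strand within 1 kb upstream. Of all protein-coding genes with such a neighbour 49.2% were bound, a share that the CCT interval holds. The ribosomal interval lies above the 25.4% and holds the 35.0%.

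In the outer ring of the core 4 of 8 genes were bound (50%, 21.5% to 78.5%), an interval that holds both the 25.4% of all protein-coding genes and the 35.0% of those with a CpG-rich start. PSMA1, PSMA2, PSMA3 and PSMA5 were bound, while PSMA4, PSMA6, PSMA7 and the testis-expressed PSMA8 were not. Peak strength is given as the pileup, a count of the tags that cover the summit once extended, and as the fold enrichment, a ratio to the local background. PSMA3 (ENSG00000100567.13) had a pileup of 15 and a fold enrichment of 7.27, with the summit 106 bp inside the gene from its nearest start, in an intron. PSMA1 (ENSG00000129084.18) was the only proteasome gene with more than 1 HSF1 peak. Its stronger peak, at chr11:14520092-14520378, had a pileup of 14 and a fold enrichment of 8.52, and its weaker one, at chr11:14643801-14644111, a pileup of 8 and a fold enrichment of 5.56 at another start of the gene. PSMA5 had a pileup of 11 and a fold enrichment of 6.38, with the summit 81 bp upstream of the start and inside a CCAAT. PSMA2 was low on both measures, with a pileup of 8 and a fold enrichment of 5.29, and its summit lay 1 bp from a start that it shares within 1 kb with MRPL32, a mitochondrial ribosomal protein gene on the opposite strand.

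In the inner ring 2 of 11 PSMB genes were bound (18.2%, 5.14% to 47.7%), an interval that holds the 25.4% of all protein-coding genes. None of PSMB5, PSMB6 and PSMB7, which encode the constitutive catalytic subunits, was bound, nor were the structural genes PSMB2, PSMB3 and PSMB4, the interferon-induced catalytic genes PSMB8 and PSMB9, or the thymus-specific PSMB11. The 2 bound PSMB genes both had a start of another protein-coding gene nearer to the summit, at PSMB10 a readthrough gene that spans it. At PSMB1 (ENSG00000008018.9), a structural subunit, the peak at chr6:170554008-170554378 had a pileup of 25 and a fold enrichment of 11.3, the highest of all bound proteasome genes on both measures. Its summit lay 900 bp upstream of the PSMB1 start and 95 bp from a start of TBP, the TATA-binding protein gene, which runs the other way. It was also the bound gene closest to the 1 kb limit. At PSMB10, the interferon-induced counterpart of PSMB7, the pileup was 14 and the fold enrichment 4.66, the lowest fold of the 20, and the summit lay 1201 bp from the canonical start and 146 bp from the nearest annotated one.

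Among the ATPases of the base, PSMC3 and PSMC4 were bound and PSMC1, PSMC2, PSMC5 and PSMC6 were not. PSMC4 (ENSG00000013275.8) had the second highest pileup of the proteasome genes, 21, with a fold enrichment of 9.73 and a summit 170 bp upstream of the start, outside any annotated transcript. PSMC3 had a pileup of 16 and a fold enrichment of 7.02, and its summit lay 458 bp upstream. Of the large scaffold subunits of the base, PSMD1 was bound with a pileup of 15 and a fold enrichment of 6.25, while PSMD2 was not. PSMD4, which carries a ubiquitin receptor, was not bound.

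In the lid, PSMD3, PSMD6, PSMD8 and PSMD14 were bound, and PSMD7, PSMD11, PSMD12 and PSMD13 were not. PSMD3 (ENSG00000108344.15), a scaffold subunit, had a pileup of 18 and a fold enrichment of 10.4, with a summit 195 bp upstream of the start. PSMD14, the deubiquitinase, had a pileup of 9 and a fold enrichment of 6.17, and PSMD7, whose product pairs with it, was 362925 bp from the nearest summit. PSMD8 had a pileup of 11 and a fold enrichment of 6.06. PSMD6 had the lowest pileup of all, 6, with a fold enrichment of 4.86.

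The PSMD genes that encode chaperones of the base, rather than parts of the finished particle, were PSMD5, PSMD9 and PSMD10, and each was bound, while PAAF1, a base chaperone gene outside the PSM symbols, was not. PSMD5 (ENSG00000095261.14) had a pileup of 20 and a fold enrichment of 8.68, PSMD10 a pileup of 11 and a fold enrichment of 7.59, and PSMD9 a pileup of 9 and a fold enrichment of 6.85. This grouping was made after the values were seen, and over so few genes a share cannot be set against the 25.4% of all protein-coding genes. The chaperones of the core work as the pairs PSMG1 with PSMG2 and PSMG3 with PSMG4. In each pair the first gene was bound and the second was not. The 95% Wilson interval of 2 in 4 genes holds the 25.4% of all protein-coding genes. It also holds the 35.0% of those with a CpG-rich start. The order within the pairs was noticed in the data and was not tested. PSMG1 (ENSG00000183527.12) had a pileup of 18 and a fold enrichment of 10.0, with the summit 60 bp upstream of its nearest start, and PSMG3 had a pileup of 11 and a fold enrichment of 6.19.

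Of the activators, PSME2 and PSME3 were bound and PSME1 and PSME4 were not, and PSMF1 was not bound. PSME2 (ENSG00000100911.16), a subunit of the interferon-induced activator, had a pileup of 19 and a fold enrichment of 6.33, and PSME3, a nuclear activator, a pileup of 8 and a fold enrichment of 6.72. Both summits were nearer to a neighbour than to the activator gene itself: the PSME2 summit was 161 bp from PSME2 and 56 bp from RNF31, and the PSME3 summit was 119 bp from PSME3 and 54 bp from BECN1. PSME1, the partner of PSME2, was the unbound gene with the closest summit, at 4149 bp. The next was PSMC6 at 6379 bp, and no unbound gene had a summit within 2 kb. The median distance of the 28 unbound genes to the nearest HSF1 summit was 69.1 kb.

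Peak height at the bound proteasome genes was close to that of bound genes in general. The median pileup was 14 (lowest 6, highest 25) at the 20 genes and 14 (quartiles 11 and 19) at the 5098 bound protein-coding genes. Of the 20 genes, 9 were above that median, 2 at it and 9 below. The median fold enrichment was 6.78 against 7.28, with 7 genes above the latter and 13 below. Counting error is wide at this depth: a pileup of 25, at PSMB1, has an exact 95% Poisson interval of 16.2 to 36.9, and a pileup of 6, at PSMD6, one of 2.20 to 13.1. These were the 2 genes whose interval did not hold the median of 14. At the other 18 genes a difference from the typical bound gene was not detectable at this depth.

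**Figure D2:**
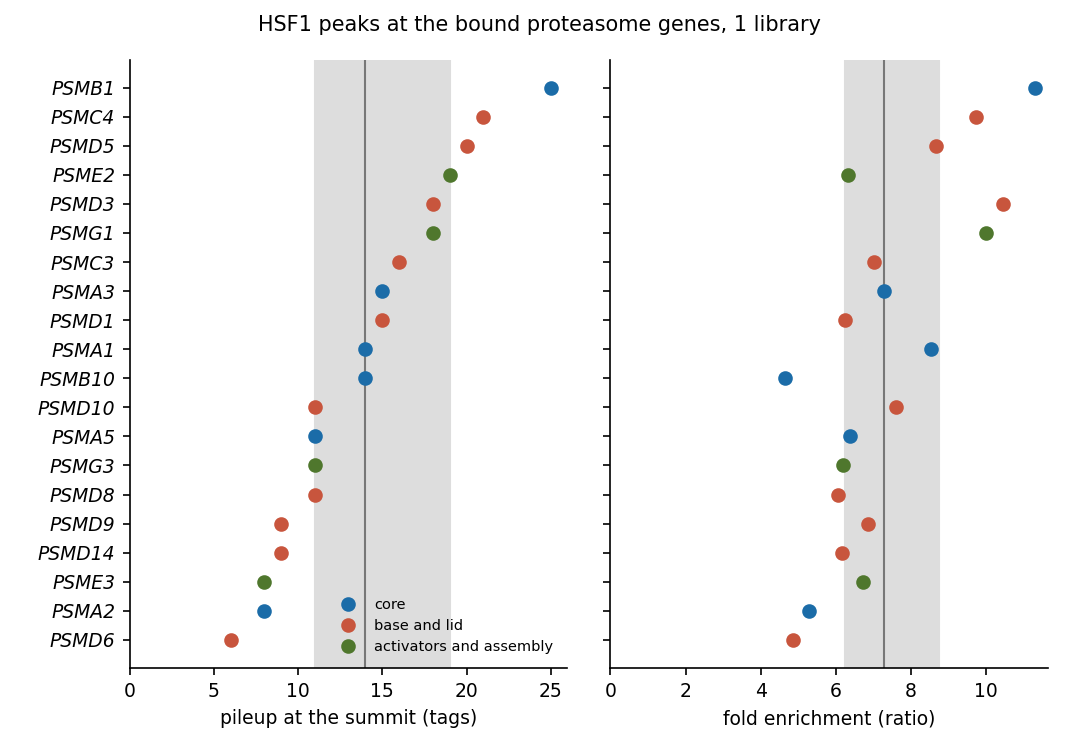
HSF1 pileup at the summit (left, tags) and fold enrichment (right, ratio) of the 20 bound proteasome genes, 1 library, ordered by pileup and coloured by class. The grey line and band are the median and the quartiles of all bound protein-coding genes (pileup 14, 11 to 19); PSMB1 is highest on both scales, and PSMD6 has the lowest pileup.

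Summit positions were close to those at bound genes in general. They lay upstream of the nearest start at 15 of 20 proteasome genes (75%) and 74.7% of all bound protein-coding genes, and within 250 bp of it at 17 of 20 (85.0%) and 81.9%. Of the 20 summits, 8 lay outside any annotated transcript, 10 in an exon and 2 in an intron. In 8 of 20 cases a start of another protein-coding gene lay within 1 kb of the summit, counting readthrough genes that span a proteasome gene, and in 4 (PSMB1, PSMB10, PSME2 and PSME3) that start was nearer. With each peak given only to the gene with the nearest start, as above, 16 of 48 proteasome genes (33.3%) and 21.2% of all protein-coding genes were bound. PSMB1, PSMB10 and PSME2 were also the 3 bound genes among the 6 proteasome genes without a CpG-rich start. Across all protein-coding genes without such a start 7.61% were bound.

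Divergent neighbours, meaning a protein-coding gene that starts on the opposite strand within 1 kb upstream, were present at 12 of 48 proteasome genes (25%) and 12.6% of all protein-coding genes. Proteasome genes with one were bound in 5 of 12 cases and those without one in 15 of 36 cases, 41.7% in both. Across all protein-coding genes the shares were 49.2% and 22.01%. The interval for the 12 genes, 19.3% to 68.0%, holds both genome-wide values, and that for the 36 genes, 27.1% to 57.8%, holds the first and lies above the second. Of these 36 genes 88.9% had a CpG-rich start, against 62.2% of all protein-coding genes without a divergent neighbour. Their interval holds the 35.0% bound among all CpG-rich starts, which include starts with a divergent neighbour. The part of CpG-rich starts in these shares was not tested. The pairs include PSMB9 with TAP1, from which the nearest HSF1 summit was 535574 bp away.

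**Figure D3:**
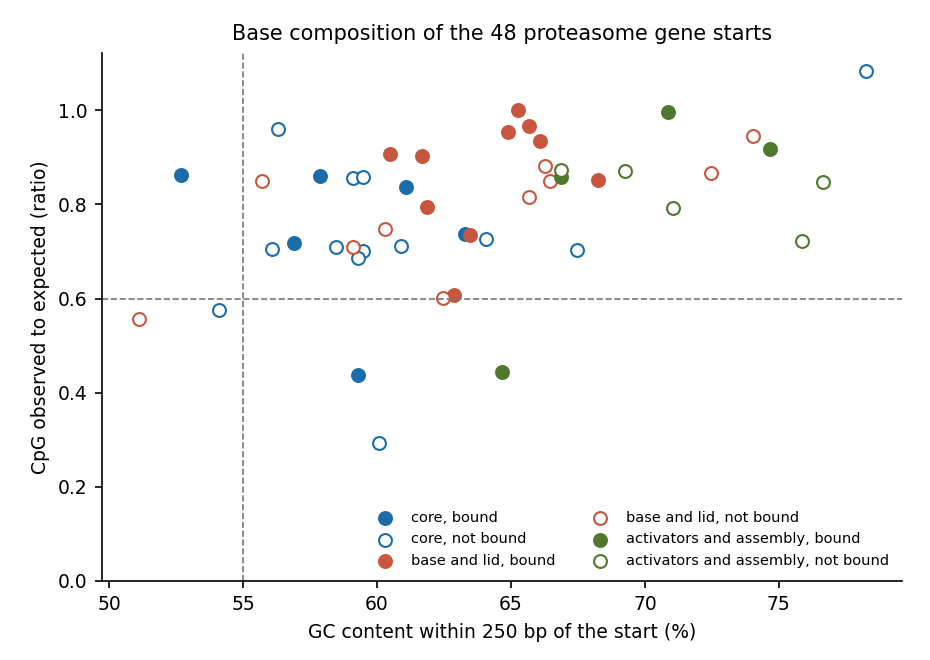
GC content (percent) against the CpG observed to expected ratio within 250 bp of the canonical start of the 48 proteasome genes; filled points are bound by HSF1, open points are not, and colours are the classes. Dashed lines mark the limits of a CpG-rich start (55% and 0.6), above both of which 42 genes lie; bound and unbound genes are mixed there.

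CCAAT was searched as those 5 letters on both strands from 150 bp upstream to 50 bp downstream of the canonical start. It was present at 14 of 48 proteasome genes (29.2%, 18.2% to 43.2%) and at 28.5% of all protein-coding genes. Around any transcript start the shares were 68.8% and 59.5%, but more windows were searched per proteasome gene. The median number of annotated starts was 8 for proteasome genes and 5 for all protein-coding genes. With CCAAT followed by C or G at the canonical start the shares were 18.8% and 22.8%, in the other order. The bound genes held it in 8 of 20 cases (40.0%, 21.9% to 61.3%) and the unbound ones in 6 of 28 (21.4%, 10.2% to 39.5%). The same order was seen across all protein-coding genes, with 36.8% of bound and 25.7% of unbound genes. With the box limited to CCAAT followed by C or G, the base and lid genes turned, at 1 of 10 bound and 2 of 10 unbound, while all proteasome genes stood at 5 of 20 and 4 of 28. By class, CCAAT stood at 6 of 19 core, 7 of 20 base and lid and 1 of 9 activator and assembly genes, the last being PSME3. Of the 20 matches, 12 were on the strand of the gene and 8 on the other, and none started downstream of the start. The palindromes at PSMD4 and PSMD14 were each counted on both strands.

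Around the summits themselves CCAAT lay within 100 bp at 8 of 20 bound proteasome genes (40.0%) and at 36.5% of all bound protein-coding genes. These were 4 of 6 core genes (PSMB1, PSMA3, PSMA5 and PSMA2), 4 of 10 base and lid genes (PSMD3, PSMD1, PSMD10 and PSMD14) and none of the 4 activator and assembly genes. The median distance from the nearest box to the summit was 38 bp, from 0 bp at PSMA5 to 91 bp at PSMA2. At PSMB1, PSMD3 and PSMD1 the box at the summit was the only one, with none in the window around the start. The reverse held for PSMC3, PSMD8 and PSME3, whose box at the start was not within 100 bp of the summit. In all, 9 of the 20 bound genes had CCAAT in neither window, among them PSMC4, PSMD5 and PSME2, which had the highest pileups after PSMB1. Of the 6 unbound genes with CCAAT, PSMB3 had 2 boxes and PSMD4 had 3 matches, a pair of which overlap as a palindrome read on both strands, as do the 2 matches at PSMD14.

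**Figure D4:**
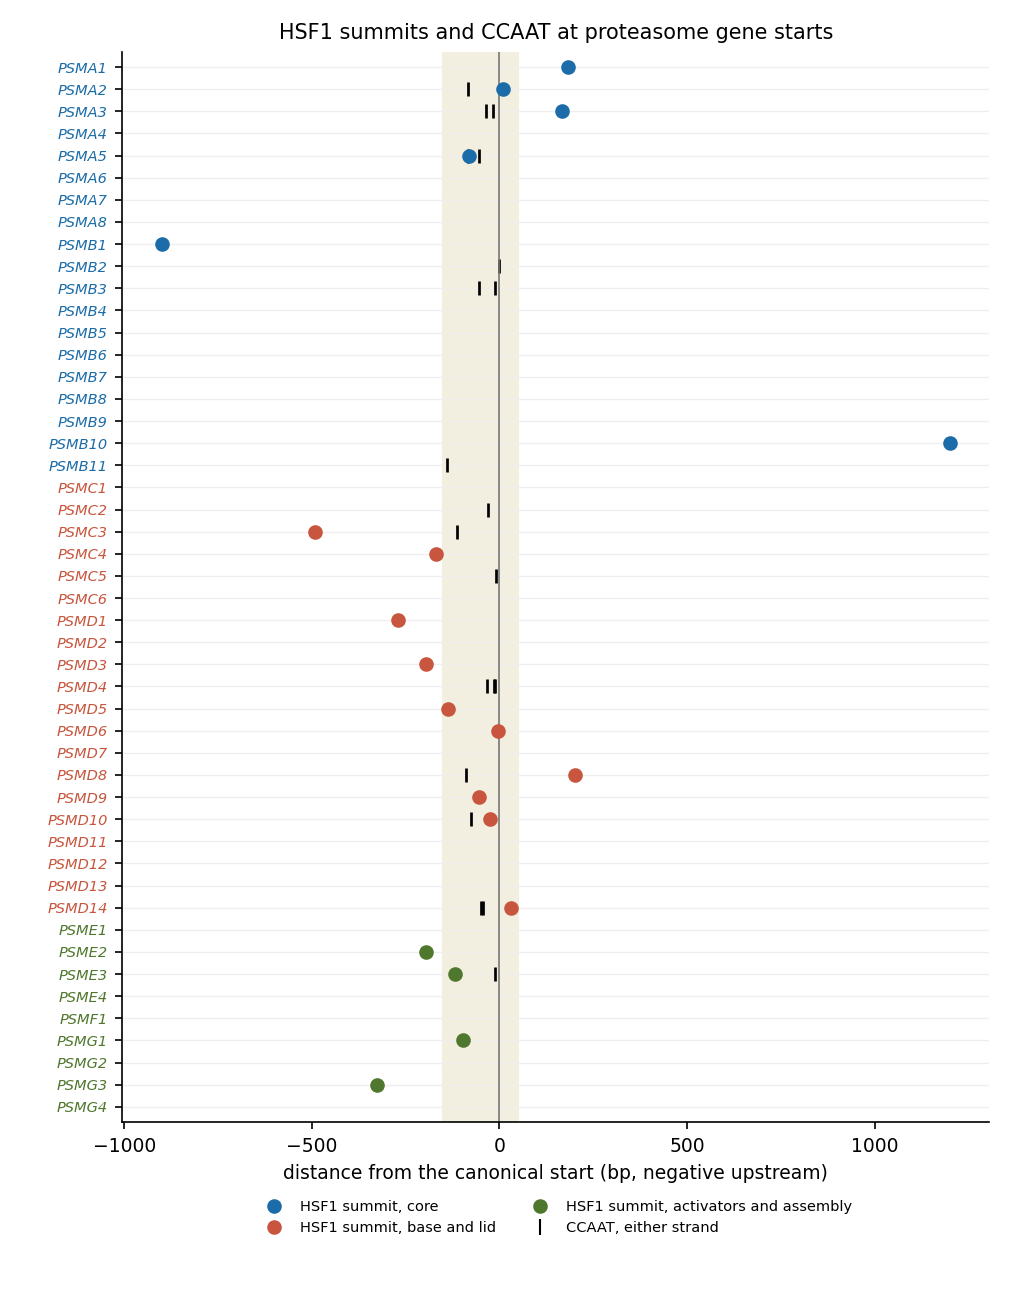
Position of the strongest HSF1 summit (points, coloured by class) and of CCAAT matches (black ticks) relative to the canonical start of each of the 48 proteasome genes, in bp, negative upstream; ticks were searched only in the shaded window from 150 bp upstream to 50 bp downstream. Most summits lie within 250 bp of the start, with PSMB1 at 900 bp upstream and PSMB10 at 1201 bp downstream of it.

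No proteasome gene had a heat shock element at its start or summit when at most 1 mismatch was allowed. The pattern was GAANNTTCNNGAA on both strands, with the mismatch counted in its 9 fixed letters. It occurred in the window around the start of 0 of 48 proteasome genes, which allows a share of up to 6.25%, and of 2.73% of all protein-coding genes. Within 100 bp of the summit it occurred at 0 of 20 bound proteasome genes and 2.39% of all bound protein-coding genes. The limit lies above the genome-wide share, so a difference between proteasome genes and all genes was not detectable with this number of genes. Across all protein-coding genes the pattern stood at the start of 2.26% of bound and 2.89% of unbound genes. It was thus no more common at bound genes, in a peak list called without a control. Among the 8 CCT genes, 3 held the pattern, of which CCT6A was bound and CCT4 and CCT5 were not. In a window from 500 bp upstream to 100 bp downstream it was found at PSMA3, PSMC6 and PSMD2, or 6.25% of proteasome genes, against 10.8% of all protein-coding genes. With 2 mismatches allowed it was found at 11 of 48 proteasome genes (22.9%) and 23.4% of all protein-coding genes.

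A further motif was added after the values above had been seen, the antioxidant response element, written TGACNNNGC and searched on both strands in the same window. It was present at 11 of 48 proteasome genes (22.9%, 13.3% to 36.5%) and 10.4% of all protein-coding genes. It stood at 5 of 20 bound (25%) and 6 of 28 unbound proteasome genes (21.4%). Across all protein-coding genes it stood at 11.6% of bound and 10.0% of unbound genes. By class the counts ran in different directions. Among base and lid genes it was found at 5 of 10 bound genes (PSMC4, PSMD1, PSMD3, PSMD5 and PSMD9) and 0 of 10 unbound ones. Among core genes it was found at 0 of 6 bound and 4 of 13 unbound ones (PSMA7, PSMB3, PSMB6 and PSMB9), and among activator and assembly genes at 0 of 4 bound and 2 of 5 unbound ones (PSME1 and PSME4). This split was noticed in the data and has no test. Within 100 bp of the summit the element lay at 4 of 20 bound genes (PSMD5, PSMD9, PSME2 and PSMG1), or 20%, and at 11.8% of all bound protein-coding genes. PSMA7, which was 17203 bp from the nearest HSF1 summit, held the most copies, 3, shown here in capitals from chr20:62143441-62143528 on the minus strand.
PSMA7: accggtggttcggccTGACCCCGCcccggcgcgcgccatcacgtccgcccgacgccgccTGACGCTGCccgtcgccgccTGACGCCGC

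**Figure D5:**
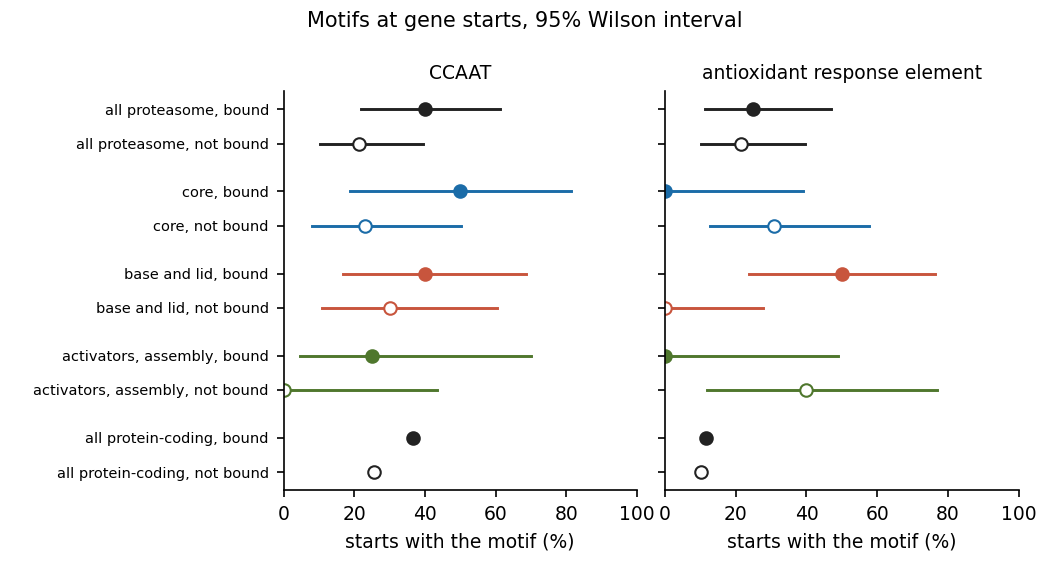
Share of gene starts, in percent, with CCAAT (left) and with the antioxidant response element (right), for bound (filled) and unbound (open) genes of each class and for all protein-coding genes; bars are 95% Wilson intervals. The CCAAT share was higher at bound genes in every set shown, with overlapping intervals in the proteasome sets and, for base and lid genes, the other order when the box is followed by C or G, and the antioxidant response element was at 5 of 10 bound and 0 of 10 unbound base and lid genes, with the other order in the core (0 of 6 and 4 of 13) and the activators and assembly genes (0 of 4 and 2 of 5).

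H3K27ac marks active promoters and enhancers, and its CUT&Tag list was short. An H3K27ac summit lay within 1 kb of a start at 4 of 48 proteasome genes (8.33%, 3.29% to 19.6%) and at 3.31% of all protein-coding genes. None was a core gene. PSMD1 had the highest H3K27ac peak, with a pileup of 14 and a fold enrichment of 7.28, and it was the only one that overlapped an HSF1 peak. PSMC6 had a pileup of 8 and a fold enrichment of 5.92, and PSMC5 a pileup of 6 and a fold enrichment of 5.56, both without HSF1. PSME3 carried both marks at different starts: its H3K27ac peak, with a pileup of 5 and a fold enrichment of 5.36, lay 9234 bp from the nearest HSF1 summit. Of the bound proteasome genes 2 of 20 had an H3K27ac peak, against 10.1% of all bound protein-coding genes, and of the unbound ones 2 of 28 (7.14%, 1.98% to 22.6%), against 0.998%. At a -log10 q of at least 5 only PSMD1 was left of the 4 genes (2.08%, against 1.28% of all protein-coding genes), and no unbound proteasome gene had an H3K27ac peak. The other 44 genes had no H3K27ac peak in this list. Only 5.70% of the tags of this library were left after duplicates were dropped, so a missing peak does not show that the mark was absent. As a check of the label, 11 genes that mark hepatocytes were looked up, among them ALB, AFP and APOA1, and 0 of 11 had an H3K27ac peak, so the list does not bear on the identity of the cells. In the HSF1 list 3 of the 11 (APOA2, APOB and HNF4A) were bound (27.3%, 9.75% to 56.6%), close to the 25.4% of all protein-coding genes.

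Other genes of the pathway, outside the PSM symbols, were bound in 16 of 31 cases (51.6%, 34.8% to 68.0%), against 25.4% of all protein-coding genes, with a median pileup of 16.5 against 14. Of these genes 29 of 31 had a CpG-rich start. The 35.0% of all protein-coding genes with such a start lies just inside the lower end of the interval, which covers all 31 genes. With the canonical start alone 13 of 31 were bound (41.9%, 26.4% to 59.2%). The shares were then 22.8% of all protein-coding genes and 32.5% of those with a CpG-rich start, and the latter lies inside the interval. NFE2L1, the factor named above, had a pileup of 18 and a fold enrichment of 8.19, 3 CCAAT boxes at its start and an H3K27ac peak. NGLY1, which deglycosylates it, was bound with a pileup of 11, and the protease gene DDI2, whose product cleaves it, was not bound. RAD23B, which encodes a shuttle for ubiquitinated proteins, and ADRM1, a ubiquitin receptor of the base, had the highest pileups in the list, 33 and 26. VCP and UFD1, parts of the segregase that feeds substrates to the proteasome, had pileups of 17 and 21, while NPLOC4 of the same complex was not bound. POMP and PAAF1, which assist assembly, SEM1, a lid subunit, and UCHL5, a deubiquitinase of the base, were not bound. H3K27ac peaks stood at 4 of the 31 genes (NFE2L1, RAD23B, UFD1 and VCP). HSF1 was found at all 4, and at 515 of the 664 protein-coding genes with an H3K27ac peak (77.6%).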

How the data were processed

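The authors mapped the CUT&Tag reads to hg38 and called peaks with MACS, version 2.1.4 per the file headers, for each library by itself without a control, at a p-value cutoff of 1e-05, with tags shifted by -100 bp and extended to 200 bp. As deposited, the pileup is a signal in tags, not scaled to library size, and fold enrichment is its ratio to the local background. The deposited p-values and q-values are on the -log10 scale. Per the file headers no q-values were calculated, yet the column holds values, which served as a filter only. Starts, ends and summits are deposited positions. The HSF1 list held 7342 peaks, with 7147 on the autosomes, X and Y, and the H3K27ac list 1392, with 1299 there; no others entered.

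Summits were matched to all transcript starts of protein-coding genes in GENCODE release 44. A canonical start is that of the transcript tagged Ensembl canonical. For genes with several peaks the highest pileup was used. Motifs were searched in hg38. Shares have 95% Wilson intervals, pileups exact Poisson intervals, and the limit for a count of 0 is 3 counts of the total. All cover counting error only. Genes described in full were the 8 highest and 4 lowest pileups and those with several HSF1 peaks, a heat shock element or an H3K27ac peak, and unbound genes are named. The sequences without CCAAT at the summit were chosen after their values were seen. The members, gene lists and motifs were chosen with earlier results of these data known. Matching and motif search were tested on simulated data. Software was matplotlib 3.10.9, pysam 0.24.0, scipy 1.17.1, pandas 2.3.3 and numpy 2.4.6 under Python 3.11.15. The ChIP-seq lists, whose headers name hg19, and the RNA-seq samples were not used here. A CUT&Tag control without primary antibody is described in the paper but is not among the samples of the series.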

Additional observations from a re-analysis of the deposited data

How the results depend on the processing

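Of 35 alternative values for 9 results, 31 stayed within the 95% interval of the value reported above and 4 moved outside it. Searching every transcript start in place of the canonical one raised the share of proteasome genes with CCAAT to 68.8%, against 59.5% of all protein-coding genes. Proteasome genes have more annotated starts to search, as given above. Allowing 2 mismatches raised the share with a heat shock element to 22.9%, against 23.4%. Requiring the H3K27ac peak to overlap the HSF1 peak gave 2.08%, against 2.32%, and requiring a -log10 q of at least 5 for H3K27ac gave 2.08%, against 1.28%. In these settings both the proteasome genes and all genes moved. The share bound ranged from 33.3%, against 21.2% of all protein-coding genes, with each peak given to the nearest start only (chosen after seeing the data), to 43.9%, against 25.4%, without the inducible or tissue-restricted members. A -log10 q of at least 5 removed the 3 genes PSMB10, PSMA2 and PSMD6 and left 35.4% against 22.03%, and for the core genes 21.1%. The share with CCAAT followed by C or G was 18.8% against 22.8%, so the order of proteasome genes and all genes changed there. With 1 library per group no replicate could be left out, and no paired analysis was possible because no result comes from a test. The pileups, mostly under 20 tags, limit what can be told apart between genes.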
